A study of Mus musculus with 26 samples.

Results

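Hyaluronan and the sulfated glycans are the long sugar chains of the pericellular coat, and 10 genes that make, bind, cut or sulfate them were followed in immortalized mouse fibroblasts that had been given c-myc or v-src. The genes were listed by symbol: Has1, Has2, Cemip, Cd44, Vcan, Hyal1, Hyal2, Papss1, Papss2 and Csgalnact1, and every probe set annotated to a single one of them was taken. This gave 26 of the 34945 single-gene probe sets on the array, and 9 of the 18193 genes that have such a probe set. Hyal1 had none: its 2 probe sets are annotated to Naa80 as well, so no value is given for it. Of the 26 probe sets, 18 lay above the limit on low signal and were tested. The other 8 (5 of Vcan and 1 each of Cemip, Cd44 and Papss2) had median signals over all arrays between 8.63 and 38.0.

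The cells were immortalized fibroblasts of mouse embryos from WA, WB and WC, 3 parental lines whose genotype, strain and embryonic age the labels do not give. Each line had been infected with the pBabe-puro retroviral vector without insert (empty vector), with pBabe carrying human c-myc, a transcription factor gene, or with pBabe carrying v-src, a viral tyrosine kinase gene that 1 label field calls human. All 9 groups therefore share immortalization and infection by a pBabe vector, and the labels do not say whether a culture was 1 clone or a pool, nor how long after infection it was lysed. There were 3 arrays for each group but 2 for WB v-src (replicates 2 and 3; replicate 1 was not analysed here), and nothing says that arrays of a group came from separate cultures, so p-values within a line measure a spread between arrays that may be technical. The series was meant to check, in these cells, an expression signature derived from human breast cancer lines that grow without anchorage.

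Arrays of a group correlated at 0.956 to 0.981 and arrays of different groups at 0.861 to 0.954 (Pearson r over probe sets), and array medians lay between 89.0 and 134.6. All 8 fibroblast markers were above the limit on low signal, with group means from 832 to 25159. The summed signal of these 8 genes ranged from 125520.1 to 145281 over the 3 lines with empty vector, from 102578 to 107537 with c-myc and from 92234 to 98895 with v-src, so the ranges of the vectors do not overlap. Of the 4 cartilage markers, 3 were above the limit, and the summed signal of the list ranged from 708 to 3248 with empty vector, from 583 to 2035 with c-myc and from 751 to 1344 with v-src. Group means reached 2069 for Col2a1, 1083 for Sox9 and 402 for Acan. Of the 4 epithelial markers 3 were above the limit, with summed signals of 1084 to 1954, 841 to 2316 and 1756 to 4117 in the same order. Epcam had group means of 492 to 3818, and those of Krt8 and Krt18 reached 281 and 194, so Epcam made most of the higher sums. Macrophage and blood markers (3 of 6 above the limit) summed to 801 to 860, 839 to 1069 and 900.3 to 1009, so that empty vector and v-src do not overlap. Neural markers (4 of 4) summed to 2445 to 3583, 1913 to 2876 and 2597 to 2982, endothelial ones (2 of 4) to 328 to 438, 372 to 419.9 and 348 to 437, and skeletal muscle ones (2 of 3) to 315 to 324, 313 to 376 and 253 to 368. In these 3 lists, as in the cartilage and epithelial ones, the ranges of the vectors overlap. The part of these marker levels in the results on the glycan genes was not tested.

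Hyaluronan is an unsulfated chain that synthases of the plasma membrane (Has1, Has2 and Has3) extrude straight into the matrix. There it is held by the receptor Cd44 and by the large proteoglycan versican (Vcan), and it is cut by hyaluronidases such as Hyal1 and Hyal2 and by the Cemip pathway. Chondroitin, dermatan and heparan sulfate, in contrast, are built in the Golgi on core proteins. Csgalnact1 adds the first N-acetylgalactosamine that commits a chain to chondroitin sulfate, and Papss1 and Papss2 make PAPS, the activated sulfate that all sulfotransferases use. In fibroblasts these chains shape adhesion, migration and the reach of growth factors.

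Several of these genes stood at other levels in the cells given an oncogene, and some differed between the oncogenes. On the probe set with the highest mean of each gene, Papss2 and Cemip were lower with either oncogene in all 3 lines. Csgalnact1 was there lower with c-myc and higher with v-src in all 3 lines. On a second probe set of Csgalnact1 the c-myc arrays of WB overlapped those with empty vector. The same held for a second Cemip probe set with c-myc in WC and with v-src in WB. Has1 was higher with v-src over the lines, whereas Has2 differed between the oncogenes and its response depended on the line. Hyal2 passed no test against empty vector.

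In the comparisons over the lines, arrays of a group were averaged first and limma was fitted to the 9 averages with line and vector as terms, so that n = 3 lines. A probe set counts as called where its p, adjusted by Benjamini-Hochberg over all 23132 probe sets tested, is below 0.05. With c-myc, 10 of the 18 probe sets were called, all 10 lower, where 18.9% of all probe sets tested were called, 9.05% lower and 9.85% higher. The median change of the 18 was -0.76 on the log2 scale and that of all probe sets tested was 0.05. With v-src, 7 of 18 were called, 3 higher and 4 lower, where 6.53% of all were called higher and 7.18% lower, 13.7% in both directions. The medians were 0.09 for the 18 and 0.01 for all. Several probe sets read the same transcript, so these counts are not counts of independent genes. Counted by the probe set with the highest mean of each gene, 3 of 9 genes were lower with c-myc, where 9.74% of 13018 genes were. By the same count 2 of 9 were higher and 2 of 9 lower with v-src, where 6.84% and 7.01% of genes were. Both comparisons use the same empty-vector arrays.

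**Figure D1:**
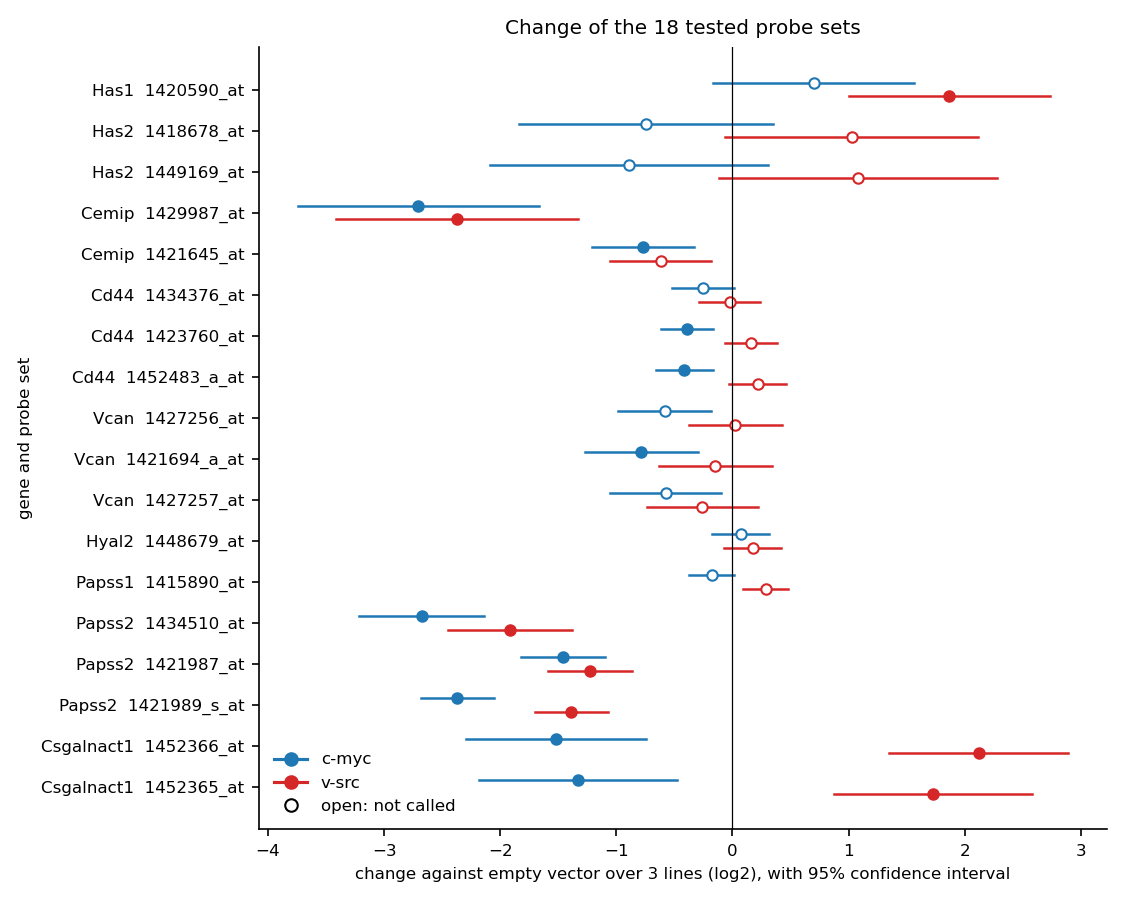
Change against empty vector over 3 lines (log2, x axis) of the 18 tested probe sets (y axis), with 95% confidence intervals, for c-myc (blue) and v-src (red). Filled points were called (adjusted p below 0.05). Papss2 and Cemip lie left of 0 with both oncogenes, and Csgalnact1 lies on opposite sides, at -1.52 with c-myc and 2.12 with v-src.

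In bulk RNA, fewer cells of a kind and less RNA per cell cannot be told apart, which holds for every value here. Signals are those the authors deposited, on a linear scale whose trimmed mean is 500 on every array. Probe sets differ in their response, so signals are compared within a probe set and not between genes. A change is a difference of log2(signal + 23), which understates the change of low signals.

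Promoter stretches of 3 genes are shown because Cemip and Papss2 were lower with both oncogenes and Has1 was the synthase called with v-src. Each is the 250 bases upstream of a RefSeq transcript start in GRCm38.p6, 5′ to 3′ on the gene's strand, at chr7:84086506-84086755 (minus strand) for Cemip, chr17:17855189-17855438 (minus strand) for Has1 and chr19:32595465-32595714 (plus strand) for Papss2. Capitals mark matches, on either strand, to a TATA box (TATAAA), a GC box (GGGCGG, or CCGCCC on the other strand) or a cyclic-AMP response element (TGACGTCA). RefSeq's span of a gene covers all its transcripts, so these stretches precede 1 listed start and not the outermost one: all 250 bases of the Has1 stretch lie inside the span of Has1, as do 188 of those of Cemip and 46 of those of Papss2.
Cemip: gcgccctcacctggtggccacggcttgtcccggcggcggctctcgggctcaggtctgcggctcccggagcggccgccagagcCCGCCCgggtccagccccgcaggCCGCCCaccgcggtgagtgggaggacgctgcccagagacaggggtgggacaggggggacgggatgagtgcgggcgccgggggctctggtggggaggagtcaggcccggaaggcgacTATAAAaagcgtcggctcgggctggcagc
Has1: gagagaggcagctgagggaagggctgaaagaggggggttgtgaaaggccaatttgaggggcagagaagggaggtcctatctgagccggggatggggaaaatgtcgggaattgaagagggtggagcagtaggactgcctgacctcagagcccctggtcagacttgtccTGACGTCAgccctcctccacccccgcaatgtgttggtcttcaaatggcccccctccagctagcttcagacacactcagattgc
Papss2: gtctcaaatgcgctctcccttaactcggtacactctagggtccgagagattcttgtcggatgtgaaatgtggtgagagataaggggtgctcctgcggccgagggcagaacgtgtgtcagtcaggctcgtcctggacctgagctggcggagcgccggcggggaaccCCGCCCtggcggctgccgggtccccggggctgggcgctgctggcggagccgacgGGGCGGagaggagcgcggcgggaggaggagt
The Cemip stretch holds a TATA box 29 bases before the start and GC boxes at 168 and 145 bases. In that of Has1 the match to TGACGTCA begins 83 bases before the start. The Papss2 stretch has GC boxes at 85 and 31 bases.

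Of the 10 genes, 8 had such a window (Has2 and Csgalnact1 did not), and Papss1 and Papss2 had 2 each. None of the 10 windows held the E-box CACGTG, the AP-1 motif TGANTCA or the STAT motif TTCNNNGAA on either strand. These occur in 6.02%, 6.75% and 7.02% of all 32851 windows of the same length. TATAAA occurs in 12.4% of them, GGGCGG in 32.7% and TGACGTCA in 1.55%. No pair of these motifs contains the other. GGGCGG was found in the windows of Cemip, Hyal2, Hyal1 and Vcan and in the first windows of Papss1 and Papss2. The second windows of Papss1 and Papss2 held no match to it, and the Papss2 stretch printed above is the first. A match is a string of letters and was not tested as a binding site, and a window without a match says nothing about the factor elsewhere.

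Has1, the synthase that is scarce in most resting cells, was higher with v-src. Its signals with empty vector were 191, 50.1 and 190.3 in WA, 156, 43.3 and 69.1 in WB, and 35.2, 34.2 and 35.3 in WC. With v-src they were 272, 120.4 and 255 in WA, 839 and 740.4 in WB, and 134, 198 and 350.2 in WC. The groups overlapped in WA and were apart in WB and WC, and the WB cells with v-src stood above all others. Over the lines Has1 rose 3.65-fold (log2 change 1.87 ± 0.376 (SE), n = 3 lines, 95% interval 1.00 to 2.73, limma adjusted p = 0.0166). In the single lines, fitted to the 26 arrays as 9 means, the change was 0.61 in WA (adjusted p = 0.366), 2.98 in WB (0.000114) and 2.02 in WC (0.00166). The test of a difference between lines gave an adjusted p of 0.0592. Without WB the change was 1.31 (limma adjusted p = 0.113) and without WC 1.79 (0.104), so the call was lost in both fits. These fits have fewer lines, and without WC the size of the change was nearly kept.

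With c-myc, Has1 signals were 177, 51.2 and 137 in WA, 271, 183 and 191 in WB, and 44.5, 102 and 190.0 in WC. The change over the lines was 0.70 ± 0.376 (SE, n = 3 lines), which was not called (limma adjusted p = 0.230). Set directly against c-myc, v-src gave 1.17 with an adjusted p of 0.0549.

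Has2 is the main synthase of embryonic mesenchyme and of most cultured fibroblasts. On probe set 1418678_at the empty-vector signals were 1414, 1201 and 1209.7 in WA, 2092, 2171 and 1904 in WB, and 771, 774 and 1397 in WC. The c-myc arrays had 444, 333 and 377 in WA, 2502, 2390.4 and 2579.7 in WB, and 255, 574 and 944 in WC. The v-src arrays had 4650.4, 4691 and 4391 in WA, 3271 and 3178 in WB, and 1556, 1381 and 1412 in WC. In WA the vectors were fully apart, with c-myc lowest and v-src highest. In WB the c-myc arrays lay above the empty-vector arrays, and in WC the c-myc arrays overlapped them.

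Within WA, Has2 fell 3.20-fold with c-myc (log2 change -1.68 ± 0.261, SE, n = 3 arrays a group, limma adjusted p = 1.92e-05) and rose 3.55-fold with v-src (1.83 ± 0.261, adjusted p = 9.70e-06). In WB neither change was called (0.28 with c-myc and 0.65 with v-src, adjusted p 0.494 and 0.116). In WC the c-myc change was -0.83 (adjusted p = 0.0156) and the v-src change 0.61 (0.0900). The WC call with c-myc rests on single arrays: without WC c-myc replicate 1 the change was -0.35 (adjusted p = 0.170), and without WC empty replicate 3 it was -0.55 (0.124). The effect of c-myc differed between the lines (F test in limma, adjusted p = 0.00263), and the second probe set, 1449169_at, gave -1.99 in WA, 0.17 in WB and -0.86 in WC with an adjusted p for the difference of 0.000140.

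The v-src effect on Has2 differed between the lines with an adjusted p of 0.0423 on 1418678_at and 0.0143 on 1449169_at. The first of these was lost when any of 19 single arrays was left out, with adjusted p up to 0.0879. The second was lost only without WB v-src replicate 2, among single arrays (0.0512). On 1449169_at the v-src arrays lay above the empty-vector arrays of their own line in all 3 lines. Signals were 2392 to 2654 against 621 to 746 in WA and 1678 to 1797 against 1163 to 1334 in WB. In WC they were 679 to 869 against 274 to 549. Over the lines Has2 was not called against empty vector, at -0.74 ± 0.475 with c-myc (95% interval -1.83 to 0.35, limma adjusted p = 0.309) and 1.03 ± 0.475 with v-src (-0.06 to 2.12, adjusted p = 0.187). The oncogenes themselves differed: Has2 was 3.41-fold higher with v-src than with c-myc (log2 1.77 ± 0.475, adjusted p = 0.0288; 1.97 and 0.0276 on the second probe set). This call was lost without WA (0.90, adjusted p = 0.0867) and without WC (1.94, 0.107).

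**Figure D2:**
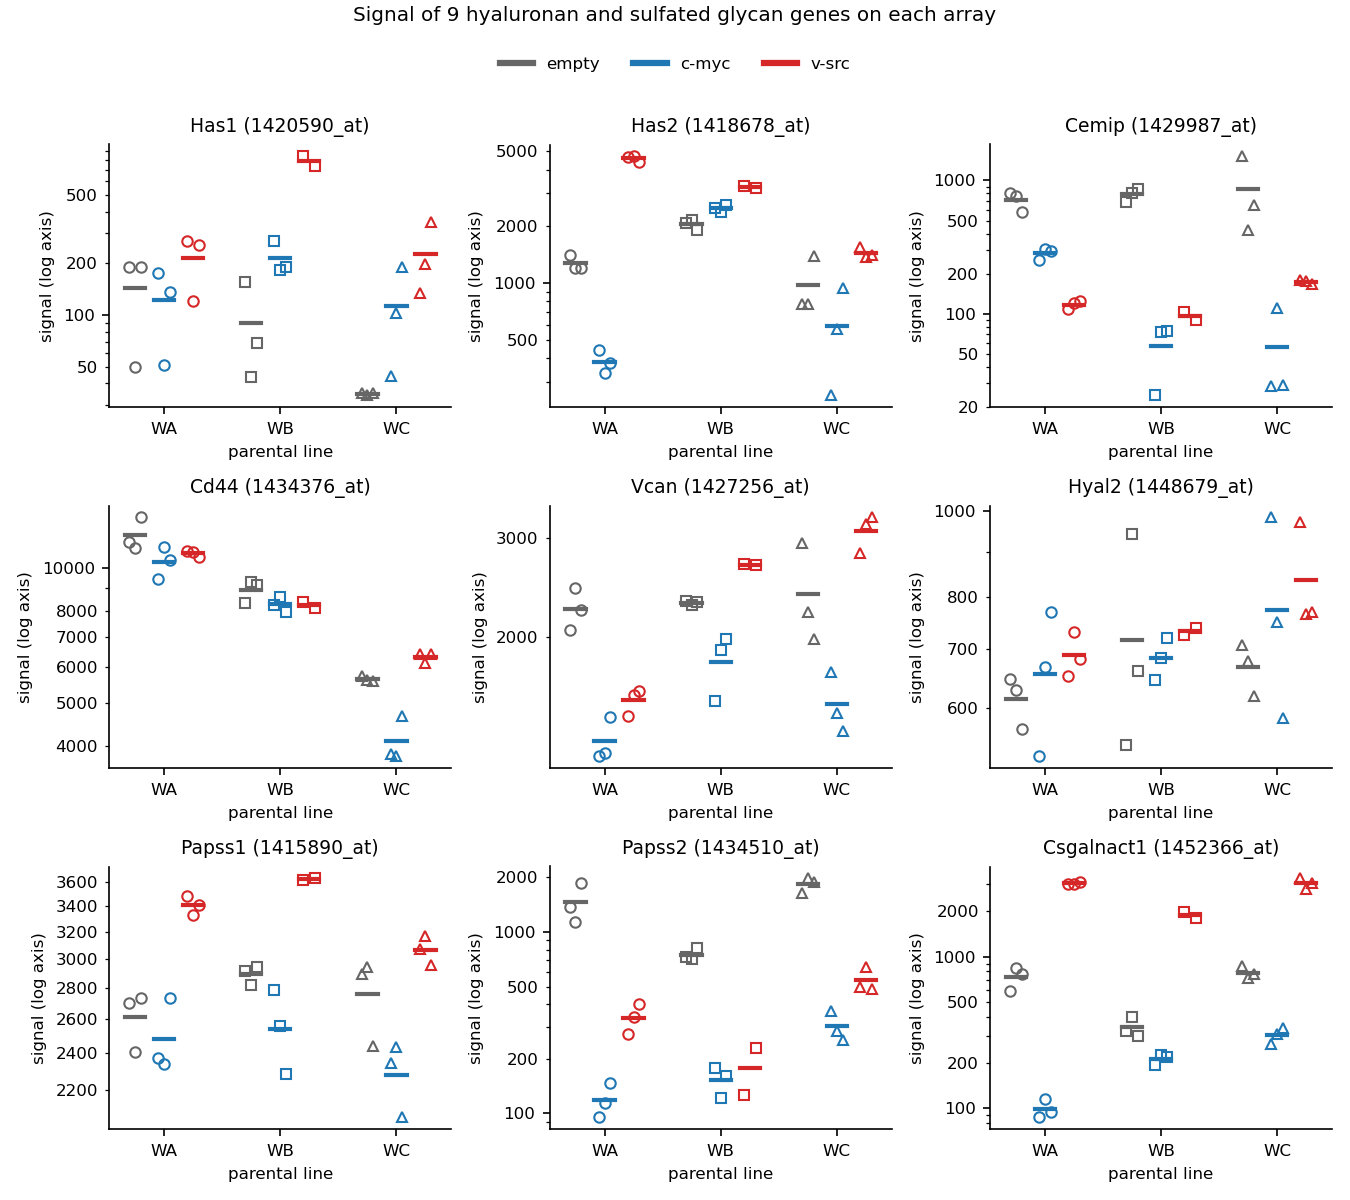
Deposited signal on each array (points, log axis) of 9 genes by parental line, with the group mean as a bar; grey is empty vector, blue c-myc and red v-src, with 3 arrays a group and 2 for v-src in WB. Papss2 signals with empty vector (707 and above) lie above all those with c-myc (369 and below), and Csgalnact1 with v-src (1800.1 and above) lies above all other arrays (867 and below).

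Ordered by mean signal, Has2 was highest with v-src in WA and WB, followed by the c-myc and the empty-vector cells of WB. From WC v-src downwards each group overlapped its neighbour: WC v-src, WA empty, WC empty, WC c-myc and WA c-myc. With empty vector alone Has2 differed between the lines (adjusted p = 0.00456), highest in WB, where 42.4% of all probe sets tested differed between the lines.

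Cd44, the main hyaluronan receptor of the cell surface, had high signal in all groups, and its changes over the lines were small. On its brightest probe set, 1434376_at, mean signals with empty vector were 11808 ± 1001 in WA, 8924 ± 524 in WB and 5647 ± 77.1 in WC (SD, n = 3 arrays). With c-myc they were 10323 ± 846, 8287 ± 316 and 4101 ± 485, and with v-src 10775 ± 174, 8253 ± 192 (n = 2 arrays) and 6333 ± 168. The lines stood in the same order with every vector, and the empty-vector cells differed between lines on all 3 tested probe sets (limma adjusted p from 5.80e-10 to 3.43e-07).

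Against empty vector over the lines, c-myc lowered 2 of the 3 Cd44 probe sets, by a log2 change of -0.39 on 1423760_at (limma adjusted p = 0.0269) and -0.41 on 1452483_a_at (0.0318), and 1434376_at stood at -0.25 (0.161). The call on 1452483_a_at ended with WC empty replicate 2 left out (-0.39, adjusted p = 0.0505) and with WB c-myc replicate 2 left out (-0.36, 0.0809), and both calls were lost when any line was left out (adjusted p from 0.0554 to 0.215) or without the intensity trend (0.0740 and 0.0715). With v-src the 3 values were -0.02, 0.16 and 0.22, none called. Between the oncogenes Cd44 was 1.47-fold and 1.55-fold higher with v-src than with c-myc on the same 2 probe sets (limma adjusted p = 0.00574 and 0.00511), and 1434376_at stood at 0.23 (0.186). Within WC the v-src arrays lay above the empty-vector arrays on all 3 probe sets (3686 to 3728 against 2450 to 3034 on 1452483_a_at). In WB this held for 1423760_at and 1452483_a_at, and 1434376_at overlapped. In WA v-src lay below on 1434376_at and overlapped on the others. On 1452483_a_at c-myc arrays read 4428 to 4604 against 6547 to 7275 in WA and overlapped empty vector in WB and WC.

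Vcan encodes versican, which binds hyaluronan with its N-terminal domain and carries chondroitin sulfate chains. On 1427256_at the mean signals with empty vector were 2247 ± 191 in WA, 2307 ± 17.2 in WB and 2387 ± 499.6 in WC (SD, n = 3 arrays), and these lines did not differ by the test (adjusted p = 0.886). With c-myc they were 1308 ± 120.0, 1811 ± 239.8 and 1522 ± 193, below the empty-vector arrays in every line without overlap. With v-src they were 1546 ± 86.8 in WA, 2694 ± 7.55 in WB (n = 2 arrays) and 3093 ± 236 in WC. The v-src arrays lay below the empty-vector arrays in WA and above them in WB, and they overlapped them in WC.

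Over the lines the c-myc change of Vcan was -0.58 (limma adjusted p = 0.0517) on 1427256_at, -0.78 (0.0379) on 1421694_a_at and -0.57 (0.0913) on 1427257_at, so 1 of 3 probe sets was called. That call was lost without WB c-myc replicate 1 (-0.71, adjusted p = 0.0722), without WA (-0.52, 0.156) and without WC (-0.77, 0.152). The first probe set, in turn, was called when any of 8 single arrays was left out, with adjusted p down to 0.0391. With v-src no probe set was called over the lines (0.03, -0.15 and -0.26), but the v-src effect differed between lines on 1427256_at (adjusted p = 0.00131) and 1421694_a_at (0.0118). On 1427256_at it was -0.53 in WA (adjusted p = 0.00178), 0.22 in WB (0.258) and 0.39 in WC (0.0173). The WC call was lost without any of WC empty replicate 2 (0.0680) or 3 (0.27, 0.124) and WC v-src replicate 2 (0.0586) or 3 (0.0717). On 1421694_a_at the values were -0.77, 0.15 and 0.18, and there the c-myc effect differed between lines too (-1.31, -0.22 and -0.82, adjusted p = 0.00820).

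Cemip, a protein required for cells to cut extracellular hyaluronan, was lower with either oncogene. On 1429987_at the empty-vector signals were 811, 758 and 579 in WA, 694, 805 and 869.8 in WB, and 1515, 427 and 651 in WC. Arrays with c-myc read 254, 306 and 293 in WA, 24.5, 72.6 and 73.8 in WB, and 28.8, 109.9 and 29.2 in WC. Arrays with v-src read 108, 120.3 and 124 in WA, 103 and 89.8 in WB, and 178, 177 and 167 in WC. Every empty-vector array lay above every array with an oncogene, and WC empty replicate 1 was the highest of all.

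Over the lines Cemip fell 6.52-fold with c-myc (log2 change -2.70 ± 0.453, SE, n = 3 lines, 95% interval -3.75 to -1.66, limma adjusted p = 0.00774) and 5.19-fold with v-src (-2.37 ± 0.453, -3.42 to -1.33, adjusted p = 0.0136). Line by line, c-myc gave -1.26 (WA), -3.41 (WB) and -3.45 (WC), and these differed with an adjusted p of 0.00361. The v-src values were -2.39, -2.76 and -1.98, and their difference had an adjusted p of 0.578. The c-myc call over the lines was lost without WB (-2.35, adjusted p = 0.0620) and without WC (-2.33, 0.0593), and the v-src call without WB (-2.18, 0.105). Set directly against c-myc, v-src gave 0.33 (95% interval -0.71 to 1.37, adjusted p = 0.645), at -1.13 in WA, 0.65 in WB and 1.47 in WC. The WA value was called, in the direction opposite to the average.

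The second tested Cemip probe set, 1421645_at, had lower signals (group means 69.0 to 217) and smaller changes in the same directions. It stood at -0.77 with c-myc (limma adjusted p = 0.0275) and -0.62 with v-src (0.0676). On this probe set the c-myc effect was not called as different between the lines. The c-myc call ended with WC empty replicate 1 left out (-0.67, adjusted p = 0.0532) and with WB v-src replicate 3 left out (0.0520).

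Hyal2 is a hyaluronidase anchored to the cell surface that cuts long hyaluronan into fragments. Its mean signals ranged from 615 ± 40.7 in WA with empty vector to 837 ± 118 in WC with v-src (SD, n = 3 arrays), and groups next to each other in that order overlapped. The change was 0.07 with c-myc (95% interval -0.17 to 0.32, limma adjusted p = 0.673) and 0.18 with v-src (-0.07 to 0.42, adjusted p = 0.304). No change in a single line was called. Hyal1, the lysosomal hyaluronidase whose gene is the neighbour of Hyal2 on chromosome 9, could not be measured by itself, as given above.

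Papss1, the PAPS synthase made by most tissues, changed little. Its mean signals with empty vector were 2616 ± 183 in WA, 2893 ± 66.2 in WB and 2759 ± 279 in WC (SD, n = 3 arrays). With c-myc they were 2482 ± 218, 2544 ± 252 and 2279 ± 194, and with v-src 3409 ± 78.3, 3626 ± 12.4 (n = 2 arrays) and 3068 ± 105. The v-src arrays lay above the empty-vector arrays of their own line in all 3 lines. The change over the lines was -0.18 ± 0.0847 with c-myc (limma adjusted p = 0.178) and 0.29 ± 0.0847 with v-src (0.0595), neither called. The second was called without WC empty replicate 1 (adjusted p = 0.0460) or 2 (0.0497). Between the oncogenes Papss1 was 1.38-fold higher with v-src (0.47, adjusted p = 0.00672), at 0.46, 0.51 and 0.43 in WA, WB and WC, a call lost without WB (0.0540) or WC (0.0501).

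Papss2, the second PAPS synthase, is the one whose loss disturbs cartilage sulfation. On 1434510_at the empty-vector signals were 1382, 1129 and 1874 in WA, 726, 707 and 814 in WB, and 1637, 1974 and 1878 in WC. Cells with c-myc gave 95.5, 115 and 147 in WA, 178, 121 and 162 in WB, and 369, 284 and 254 in WC. Cells with v-src gave 275, 338 and 399 in WA, 126 and 228 in WB, and 496, 642 and 487 in WC. Every empty-vector array lay above every array with an oncogene, across lines as well as within them. In WA and WC the c-myc arrays lay below the v-src arrays, and in WB they overlapped.

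Over the lines Papss2 fell 6.40-fold with c-myc (log2 change -2.68 ± 0.233, SE, n = 3 lines, 95% interval -3.21 to -2.14, limma adjusted p = 0.00202) and 3.77-fold with v-src (-1.91 ± 0.233, -2.45 to -1.38, adjusted p = 0.00271). The other tested probe sets fell as well, with 1421989_s_at at -2.37 for c-myc and -1.39 for v-src and 1421987_at at -1.46 and -1.23 on the log2 scale (limma adjusted p from 0.00118 to 0.00325). These 6 calls over the lines were lost under none of the settings run, including each line and each array left out. The c-myc effect on 1434510_at differed between the lines (WA -3.37, WB -2.14 and WC -2.52, adjusted p = 0.0129), which was not called on the other probe sets (0.802 and 0.207). The v-src effect was -2.03, -1.99 and -1.72, and its difference had an adjusted p of 0.724. Between the oncogenes Papss2 was higher with v-src on 1421989_s_at (0.98, adjusted p = 0.00257) and on 1434510_at (0.76, 0.0456), and 1421987_at stood at 0.23 (0.339). The call on 1434510_at was lost when any of 7 single arrays was left out: WA empty replicate 2, WA c-myc replicate 3, WB c-myc replicate 2, WC c-myc replicate 3, WA v-src replicate 3, WC v-src replicate 2 (adjusted p from 0.0504 to 0.0738) and WB v-src replicate 3 (0.64, 0.127).

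Csgalnact1 moved in opposite directions with the oncogenes. On 1452366_at its signals with empty vector were 590.2, 837 and 765 in WA, 325, 401 and 297 in WB, and 867, 718 and 768 in WC. With c-myc they were 87.2, 115 and 94.1 in WA, 191, 225 and 218 in WB, and 266, 308 and 337 in WC. With v-src they were 3012, 3032 and 3089 in WA, 1974 and 1800.1 in WB, and 3282, 2799 and 3054 in WC. In every line the vectors were apart without overlap, with c-myc lowest and v-src highest. Empty-vector cells of WB had lower signals than those of WA and WC (difference between lines, limma adjusted p = 1.56e-07).

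Over the lines Csgalnact1 fell 2.86-fold with c-myc (log2 change -1.52 ± 0.336, SE, n = 3 lines, 95% interval -2.29 to -0.75, limma adjusted p = 0.0191) and rose 4.35-fold with v-src (2.12 ± 0.336, 1.35 to 2.89, adjusted p = 0.00693). It was 12.5-fold higher with v-src than with c-myc (3.64 ± 0.336, adjusted p = 0.000714). The c-myc effect differed between the lines, from -2.62 in WA through -1.31 in WC to -0.63 in WB (adjusted p = 3.79e-07). The v-src effect was 2.04, 2.40 and 1.93, and its difference between lines had an adjusted p of 0.227. The c-myc call over the lines was lost without WA (-0.97, adjusted p = 0.0548) and without WC (-1.62, 0.0974), and the v-src call was lost in no setting run.

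The second probe set, 1452365_at, gave -1.33 with c-myc (limma adjusted p = 0.0412) and 1.73 with v-src (0.0213), and v-src against c-myc gave 3.06 (0.00166). Its c-myc effect differed between lines too (WA -2.32, WB -0.21 and WC -1.46, adjusted p = 0.00281). In WB its c-myc signals (76.3, 80.2 and 116) overlapped those with empty vector (123, 109 and 92.3). The c-myc call was lost without WB c-myc replicate 1 (adjusted p = 0.0515) or WC c-myc replicate 2 (0.0518), and the v-src call without WC (1.64, 0.130).

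**Figure D3:**
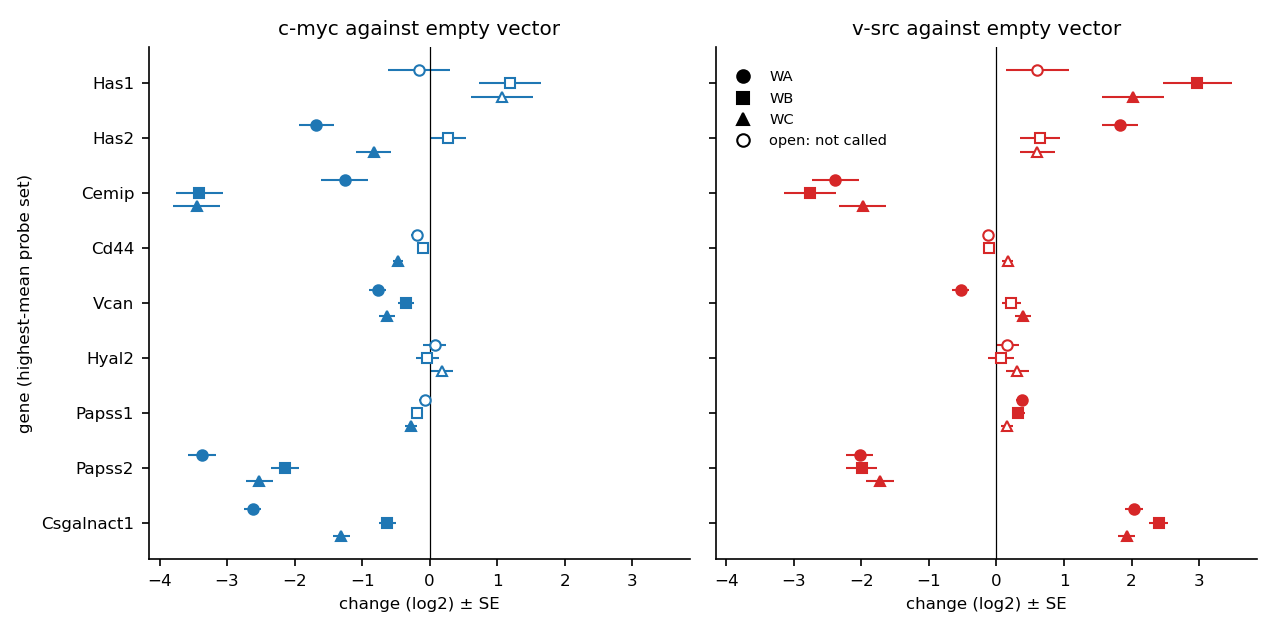
Change against empty vector within each parental line (log2, x axis, with SE) of the highest-mean probe set of 9 genes, c-myc on the left and v-src on the right; circles are WA, squares WB and triangles WC, filled where called. Csgalnact1 with c-myc spreads from -2.62 in WA to -0.63 in WB, and Has2 with c-myc lies on both sides of 0.

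Counted line by line, c-myc lowered 13 of the 18 probe sets in WA, 7 in WB and 15 in WC, where it lowered 16.7%, 13.0% and 16.9% of all probe sets tested. None was called higher with c-myc in a single line, where limma called 18.9%, 12.3% and 17.4% of all higher. Those with an unadjusted p below 0.05 in either direction were 15, 10 and 17, where 10073, 8187 and 9661 of all 23132 probe sets tested were. With v-src 5 were higher and 7 lower in WA, 4 and 4 in WB, and 7 and 5 in WC. The shares of all probe sets were 12.3% higher and 13.5% lower in WA, 11.5% and 12.9% in WB, and 12.8% and 14.6% in WC. WB, with 2 v-src arrays, had the fewest called with either oncogene, and its v-src count fell to 5 without WB v-src replicate 3. Among the 9 genes, c-myc had an effect that differed between lines for Has2, Cemip, Papss2 and Csgalnact1, where 15.1% of 13018 genes and 13.6% of all probe sets differed. That of v-src differed for Has2 and Vcan, where 12.8% of genes and 11.8% of probe sets did. Whether the number called differs between the lines was not tested.

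Over the lines, v-src against c-myc left 10 of the 18 probe sets higher and none lower by limma's adjusted p. Of all probe sets tested 24.9% were called, 11.1% higher and 13.8% lower. An unadjusted p below 0.05 was found for 12 of the 18 and for 8744 of all 23132. The 10 belonged to Csgalnact1 (2), Has2 (2), Cd44 (2), Papss2 (2), Vcan (1) and Papss1 (1). Their values are those given gene by gene above, with Vcan 1427256_at at 0.61 (adjusted p = 0.0365; 0.0517 without WB c-myc replicate 1). This comparison shares its samples with those against empty vector.

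A wider list of 128 genes of the same pathways, without the 10, gave 124 genes on the array and 100 tested, each by its highest-mean probe set. With c-myc 26 of the 100 were called lower and 5 higher, where 9.74% and 9.98% of 13018 genes were. Their median change was -0.24, and that of all genes 0.04. With v-src 11 were lower and 9 higher, where 7.01% and 6.84% of genes were, with medians of 0.01 and 0.02. Between the oncogenes 29 were higher with v-src and 5 lower, where 11.9% and 13.6% of genes were. Of these 85 calls in the 3 comparisons, 21 were lost on leaving out some array and 20 in no setting run, the others when a line was left out or a setting changed. In the gene-by-gene paragraphs that follow, losses on leaving out a line are given only for Layn and Hmmr. A call without a stated loss may therefore still be lost that way. Of the called genes Ndst3 alone would not have passed the limit on low signal without the arrays of 1 vector, and 8 are higher with v-src without it. The 29 genes higher with v-src than with c-myc and the 85 calls include Ndst3.

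**Figure D4:**
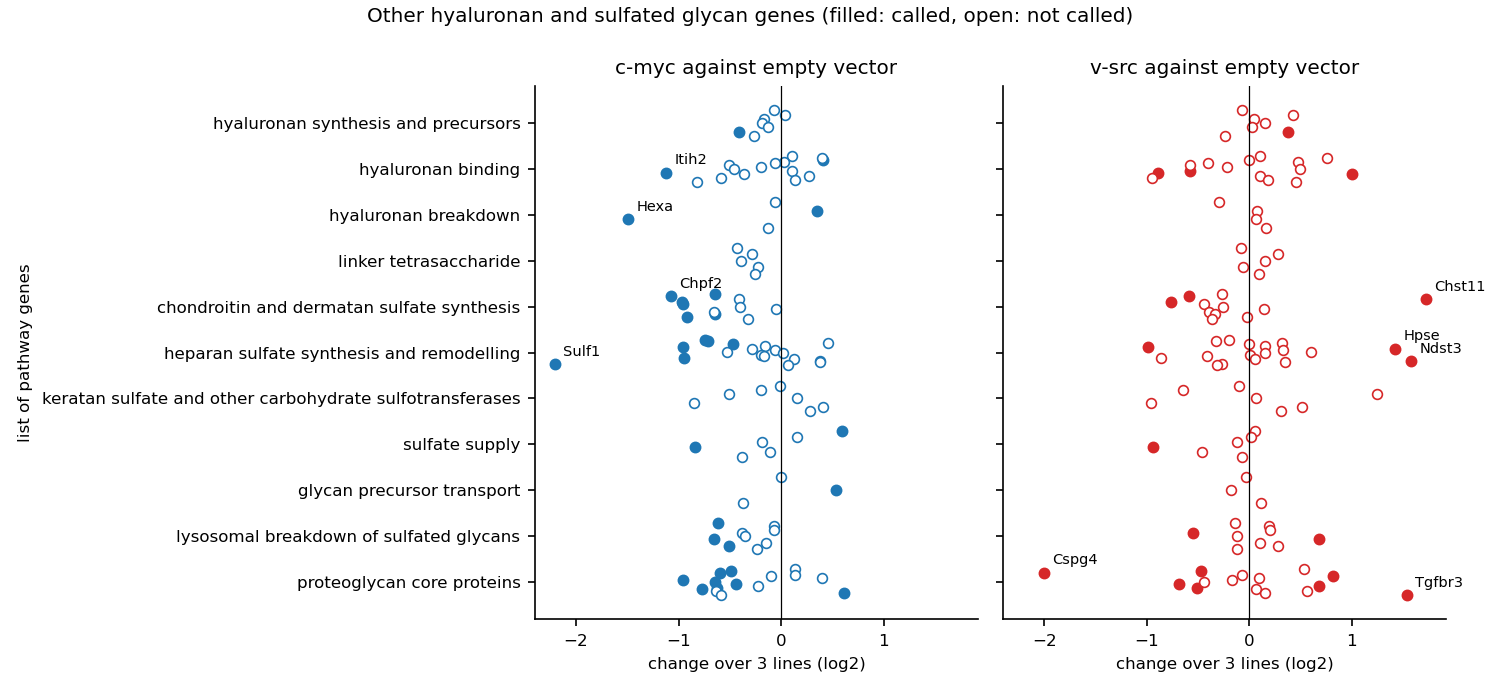
Change against empty vector over 3 lines (log2, x axis) of the 100 tested pathway genes by list (y axis), c-myc on the left and v-src on the right; filled points were called, and names mark called genes with a change of at least 1. With c-myc 6 of 11 chondroitin and dermatan sulfate genes were called lower and none higher, and with v-src Chst11 was higher at 1.72.

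The enzymes that build chondroitin and dermatan sulfate were lower with c-myc in 6 of 11 cases, where 9.74% of all genes were. The median change of the list was -0.65 and that of all genes 0.04. They were the chain polymerization factors Chpf2 (-1.07, limma adjusted p = 0.00385) and Chpf (-0.64, 0.0222), the sulfotransferases Chst12 (-0.96, 0.00307) and Chst14 (-0.96, 0.00577), and the dermatan epimerases Dsel (-0.92, 0.0110) and Dse (-0.65, 0.0283; 0.0653 without WA empty replicate 1). With v-src Chpf2 (-0.59, adjusted p = 0.0253) and Chst12 (-0.76, 0.00491) were lower. Chst11, which puts sulfate on the 4 position of chondroitin, was higher with v-src at 1.72 (adjusted p = 0.00171) and stood at -0.41 with c-myc (0.142).

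Heparan sulfate genes were lower with c-myc in 6 of 18 cases, where 9.74% of all genes were. Sulf1, an extracellular sulfatase that trims heparan sulfate, was lowest at -2.20 (limma adjusted p = 0.0280), with -0.27 under v-src (0.781). Both subunits of the chain polymerase were lower, Ext1 at -0.74 (adjusted p = 0.00953) and Ext2 at -0.72 (0.00541), as were the epimerase Glce (-0.95, 0.00797) and the sulfotransferase Hs6st2 (-0.95, 0.0337). Extl2 was the sixth (-0.47, adjusted p = 0.0472), lost when any of 11 single arrays was left out (up to 0.0643). With v-src 2 of the 18 were higher and 1 lower, where 6.84% and 7.01% of genes were. Heparanase (Hpse), which cuts the chains, was higher at 1.43 (adjusted p = 0.00271), and Glce was lower at -0.99 (0.00758). The other higher one, the sulfotransferase Ndst3, had mean log2 values of 6.27 with empty vector, 6.65 with c-myc and 7.85 with v-src. It passed the limit on low signal (6.52) only through its v-src arrays, since the mean of the others was 6.46. Its calls, against empty vector and against c-myc, are therefore not counted as support.

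Of the 15 tested core proteins of proteoglycans 7 were lower and 1 higher with c-myc, where 9.74% and 9.98% of all genes were. The lower ones were the syndecans Sdc2 (-0.62, limma adjusted p = 0.00882) and Sdc3 (-0.77, 0.0212), the glypicans Gpc4 (-0.95, 0.00813) and Gpc6 (-0.65, 0.0163; 0.0513 without WC empty replicate 1), perlecan (Hspg2, -0.44, 0.0120), biglycan (Bgn, -0.48, 0.00638) and Cspg4 (-0.59, 0.0451; lost when any of 7 single arrays was left out, up to 0.0648). With v-src 4 were lower and 3 higher, where 7.01% and 6.84% of genes were. Cspg4, the NG2 proteoglycan of mesenchymal and glial progenitor cells, was lower at -2.00 (adjusted p = 0.000937), and Sdc2 (-0.51, 0.0203), Hspg2 (-0.69, 0.00284) and Bgn (-0.47, 0.00712) were lower as well. Betaglycan (Tgfbr3), a co-receptor of TGF-beta, was higher at 1.53 (adjusted p = 0.00636), with Sdc1 at 0.68 (0.0334) and Gpc1 at 0.82 (0.0144).

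Of 15 tested genes that bind hyaluronan, 1 was higher and 1 lower with c-myc, and 1 was higher and 2 lower with v-src. Of 4 that break it down, 1 was higher and 1 lower with c-myc, and with v-src their limma adjusted p-values lay between 0.602 and 0.841. These are to be read against 9.98% higher and 9.74% lower with c-myc and 6.84% and 7.01% with v-src over all genes. Hexa, a subunit of the lysosomal hexosaminidase, was lower with c-myc at -1.49 (limma adjusted p = 0.00372) and stood at 0.07 with v-src (0.841). Itih2, a heavy chain that becomes linked to hyaluronan, was lower with c-myc (-1.12, 0.00926) and with v-src (-0.90, 0.0236). Its v-src call was lost without WA c-myc replicate 1 (0.0519) and without WB v-src replicate 2 (-0.67, 0.136). The other binding genes called with v-src, named after their values were seen, were the receptor Layn, higher at 1.00 (0.0251), and Hmmr, lower at -0.58 (0.0164). The Layn call was lost without WA (0.95, 0.136) and without WC (0.80, 0.129), and that of Hmmr without any of the 3 lines (0.0693 to 0.0872). Ugdh, which makes the glucuronic acid donor of hyaluronan and the sulfated chains and was singled out after its values were seen, was lower with c-myc (-0.41, 0.0128) and higher with v-src (0.38, 0.0203).

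The 5 genes called higher with c-myc, named after their values were seen, were the Golgi transporter gene Slc35d1 (0.54, limma adjusted p = 0.0214), C1qbp (0.41, 0.00742), the glucuronidase Gusb (0.35, 0.0326), the core protein Spock2 (0.61, 0.0317) and the nucleotidase Bpnt1 (0.60, 0.0279), which removes the by-product of sulfation. Single arrays ended the calls of Gusb (0.0568 without WC c-myc replicate 3), Spock2 (0.0633 without WB empty replicate 1 and 0.0657 without WC empty replicate 2) and Bpnt1 (0.0539 without WA c-myc replicate 1).

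The genes whose 9 group averages followed a gene of the set most closely were found by Pearson's r among tested genes, for the 5 genes with a spread of at least 2 on the log2 scale. This is a description of averages that share lines and vectors. For Papss2 they were App (0.991), Nox4 (0.974) and P3h3 (0.967), and for Cemip Col6a1 (0.984), Ulk2 (0.970) and Col6a2 (0.970). For Csgalnact1 they were Rnf11 (0.987), Spred3 (0.983) and Rab21 (0.981), for Has2 Maff (0.963), Lbh (0.941) and Mtfr1 (0.937), and for Has1 Mrpl10 (0.923), Laptm4b (0.922) and Fam110c (0.917).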

How the data were processed

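The values are probe set signals of 26 Affymetrix arrays, deposited by the authors as linear intensity made by MAS5 according to the submitters' processing notes. Its version, probe masking and detection calls were not stated in the labels. The free-text sample description speaks of another material and was not used. Names came from the platform annotation of probe sets (34945 with 1 gene, 932 with several, 9211 unnamed), with names checked in RefSeq's GRCm38.p6 gene table. The number of arrays limits the precision. From the intensity, log2(value + 23) was computed and probe sets with a mean above the 40th percentile were tested. Testing was by limma 3.58.1 (R 4.3.3, intensity trend on), adjusted by Benjamini-Hochberg over 23132 probe sets, and the code was tested on simulated data. Over the lines, 9 averages were fitted with line and vector; within lines, 26 arrays with 9 means. An SE over the lines is pooled over the 3 vectors. Named pathway genes were those called with a change of at least 1 against empty vector; others are marked or illustrate a count. The genes, lists and tests were chosen with earlier results of these data known. Replicate numbers were checked for pairing, and arrays were treated as unpaired, which the check did not settle. Alternatives tried were the pseudocount, filter, normalization, probe set choice, intensity trend, blocks, and each line or array left out.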

Additional observations from a re-analysis of the deposited data

Results flagged for a closer look

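Each result here is a vector effect that differed between the 3 lines by limma's F test of the difference itself, adjusted over all probe sets tested. With c-myc these were Has2 on 1418678_at (adjusted p = 0.00263) and on 1449169_at (0.000140), Cemip on 1429987_at (0.00361), Vcan on 1421694_a_at (0.00820), Papss2 on 1434510_at (0.0129), and Csgalnact1 on 1452366_at (3.79e-07) and on 1452365_at (0.00281). WB had the smallest c-myc change of Csgalnact1, Papss2 and Vcan on these probe sets, and WA that of Cemip. The c-myc difference was not called on the other tested probe sets of Cemip (1421645_at), Vcan (1427256_at and 1427257_at) and Papss2. With v-src the results were Has2 on 1418678_at (adjusted p = 0.0423) and on 1449169_at (0.0143), and Vcan on 1427256_at (0.00131) and on 1421694_a_at (0.0118). For Vcan 1427256_at the v-src change was called in opposite directions, -0.53 in WA and 0.39 in WC. As given above, the WC call was lost when any of several single arrays was left out. The same held for the v-src difference of Has2 on 1418678_at. Among all probe sets tested 13.6% differed between the lines with c-myc and 11.8% with v-src.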

How the results depend on the processing

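Leaving out each array in turn gave 8 to 11 called probe sets for c-myc over the lines (10 with all arrays), 7 to 8 for v-src (7) and 9 to 11 for v-src against c-myc (10). In WA, WB and WC it gave 12 to 14, 6 to 8 and 13 to 15 for c-myc, and 11 to 12, 5 to 9 and 9 to 13 for v-src. The genes whose effect differed between lines numbered 4 to 5 for c-myc and 1 to 3 for v-src, and those that differed with empty vector 4 to 5. With 1 probe set per gene, 9 were left to call by construction, and the counts were 3 for c-myc, 4 for v-src and 5 between the oncogenes over the lines, 5, 4 and 7 for c-myc in WA, WB and WC, and 6, 5 and 5 for v-src. Without line WA, WB or WC, 4, 6 and 3 were called for c-myc, and without WC 5 between the oncogenes; such fits have fewer samples. Without the intensity trend 6 were called for c-myc. With every array as a separate value 16 and 12 were called for c-myc and v-src, and the random block of line and vector gave 11 for v-src. The fit of separate arrays counts arrays that may be technical repeats as replicates. The share of all probe sets called was not computed under these altered settings. The counts therefore show only how calls among the members move, and not how the members stand against all probe sets. A v-src effect that differed between lines was called for 1 gene with a pseudocount of 1, without the filter or without the trend; the cause was not tested. Same-numbered arrays had correlated deviations of -0.140 to 0.210, above 0.1 in 4 of 25 pairs, all 4 in WC. Arrays with different numbers had -0.247 to 0.123, above 0.1 in 3 of 50 pairs. The numbers were not taken as pairs, though the check does not settle whether arrays were paired. A replicate block on all arrays gave 16 called for c-myc and 12 for v-src.

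Signs turned only for values that were not called. With v-src Cd44 1434376_at was 0.082 after quantile normalization, 0.027 without WA and 0.018 without WB, and Vcan 1421694_a_at was 0.16 without WA. Vcan 1427256_at was -0.071 without WB, -0.15 without WC, and between -0.014 (without WC empty replicate 3) and 0.080 (without WC empty replicate 1) when single arrays were left out. Hexa was -0.012 without WB and -0.023 without WC, and Sulf1 0.12 without WC. Between the oncogenes Cemip 1421645_at was -0.092 without WB, Cemip 1429987_at -0.24 and Vcan 1427257_at -0.0043 without WC. With c-myc Hyal2 was -0.0061 without WA empty replicate 3 and WC c-myc replicate 1, arrays left out together after seeing the data because they stood apart from their groups. Of 27 calls over the lines among the members, 6 were lost on leaving out some array, 12 were lost in no setting and 0 reversed, and of 67 within a line 13 were lost on leaving out some array. Low signals near the pseudocount, as of Has1 in WC with empty vector, limit the size of a change that can be read.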

Other observations

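In the comparison of the oncogenes, further pathway genes outside the rule for named genes, chosen after their values were seen, stood higher with v-src. The N-acetylglucosaminidase gene Naglu, of lysosomal heparan sulfate breakdown, was higher at 1.33 (limma adjusted p = 0.00184, n = 3 lines), and the hyaluronan receptor Layn at 1.36 (0.00483). The heparan sulfotransferase Hs3st1 was higher at 1.13 (0.00662). Hmmr, a hyaluronan-binding protein of dividing cells, was lower with v-src than with c-myc at -0.68 (0.00524). Against empty vector Hmmr stood at 0.11 with c-myc (0.558) and -0.58 with v-src (0.0164).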
